A study of Mus musculus with 10 samples.

Results

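Methylation along the genes Mex3a, Arhgef18, Egln2 and Hunk was examined in spermatozoal DNA of 10 mice. These 4 genes were selected on measured values, because they held methylation differences among the largest between decitabine and vehicle-control animals of the P-generation. Within each gene, all CpG sites from 2 kb upstream to the gene end were taken, with both strands summed and at least 10 reads in an animal. This gave 456 CpG sites of 1342754 in the whole data set, 113 in Mex3a, 73 in Arhgef18, 100 in Egln2 and 170 in Hunk. Differences of the P-generation are therefore given as a description, and tests are given for the F3-generation, whose animals played no role in the selection.

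All animals were male C57BL/6 mice. In the P-generation, C8 and C14 were injected with the vehicle, 7.5% DMSO in phosphate buffered saline, and D10, D11 and D13 with decitabine at 0.1 mg/kg in that vehicle. Injections were intraperitoneal, began at an age of 7 weeks and were given 3 times per week for 7 weeks, so that both groups carried DMSO. The F3-generation was untreated and was bred through untreated C57BL/6 females. F3C9 descended from C8 and F3C30 from C14, whereas F3D1 and F3D31 both descended from D10 and F3D7 from D11, and for D13 no descendant was analysed here. There were 2 vehicle and 3 decitabine animals per generation, with 1 library each. In reduced representation bisulfite sequencing (RRBS), DNA is cut with MspI and short fragments are converted with bisulfite, so that unmethylated cytosines are read as thymine.

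Decitabine is a cytidine analogue that is built into replicating DNA and traps DNA methyltransferases. In mature spermatozoa, CpG islands at gene starts are known to be largely free of methylation, whereas gene bodies are largely methylated. Mex3a encodes an RNA-binding protein with KH domains and a RING finger. Arhgef18 encodes a guanine nucleotide exchange factor. Egln2 encodes a prolyl hydroxylase that marks hypoxia-inducible factor for degradation when oxygen is present, and Hunk encodes a serine/threonine kinase related to AMP-activated kinase.

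The sequences that carried the largest differences are shown first, since the methylated bases lie in them. They were read from GRCm38 in the direction of transcription, and capitals mark the CpG sites called in the P-generation, that is whose pooled level differed by 25 points or more (percentage points of methylation) at q below 0.01. The Mex3a stretch is chr3:88536419-88536510 (plus strand, exon 2, coding). The Arhgef18 stretch is chr8:3451942-3452078 (plus strand, exon 17, coding). For Egln2, only the coding start of exon 2 is shown, chr7:27165458-27165498 (minus strand), and for Hunk the stretch is chr16:90483365-90483406 (plus strand, intron 8).
Mex3a: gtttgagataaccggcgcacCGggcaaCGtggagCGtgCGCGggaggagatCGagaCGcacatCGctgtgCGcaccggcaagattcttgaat
Arhgef18: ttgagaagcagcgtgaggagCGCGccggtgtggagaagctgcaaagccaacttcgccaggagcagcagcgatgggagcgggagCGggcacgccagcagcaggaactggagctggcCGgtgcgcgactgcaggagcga
Egln2: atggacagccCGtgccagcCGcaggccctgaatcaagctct
Hunk: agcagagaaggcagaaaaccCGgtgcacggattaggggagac
The Mex3a stretch held 9 called CpG sites of 12, the Arhgef18 stretch 4 of 13, the Egln2 stretch 2 of 2 and the Hunk stretch 1 of 2. These totals count every CpG site of the sequence, tested or not. Not tested in the P-generation were, among others, position 88536431 of Mex3a and positions 3452062, 3452064 and 3452076 of Arhgef18. The CpG site of the Hunk stretch in lower case was not tested either.

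The read counts of single CpG cytosines summed to between 48903817 (D13) and 115158278 (F3D1), a read counting at each cytosine it covers. The median depth per cytosine was 28 to 63 once cytosines under 10 reads were left out. A level near 50% had a Wilson interval (95%) of 32.6% to 67.4% where 28 reads were available and of 37.3% to 61.2% where 63 were. Intervals of this kind cover counting error only. The library of C8 stood apart. Its mean distance to the other 9 animals (1 minus Pearson's r over CpG sites covered in all 10) was 0.0534, against 0.0194 to 0.0288 in the others. Of 25739 CpG sites that lay between 20% and 80% in all other animals, 8.21% were at exactly 0% or 100% in C8, whereas the same count was between 1 and 63 CpG sites in each of the other 9 animals. For the leading CpG sites, the called CpG sites, the extents and the medians of gene parts, values of the P-generation are therefore also given without C8 where they moved. As a check of the labelled tissue, the promoters of Peg3, Peg10 and Nnat, which carry methylation on the maternal copy and are known to lack it in spermatozoa, were between 3.52% and 36.9%. In somatic cells, about equal shares of methylated and unmethylated reads are known at such promoters. C8 was highest at Peg3 with 36.9% and at Peg10 with 25.5%, whereas D11 was highest at Nnat with 23.4%, against 22.5% in C8. C14 was the lowest of the P-generation at all 3, with the decitabine animals between C14 and C8 at Peg3 and Peg10. For Snrpn, Mest, Plagl1 and Kcnq1ot1 no CpG site within 500 bp of the start was covered in all 10 animals. The region 2 to 4 kb upstream of H19, which is methylated in spermatozoa, was between 84.7% and 100% at 2 CpG sites. The part of these values in the results below was not tested.

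In the P-generation, 312 CpG sites of the 4 genes were covered in all 5 animals, and 20 of them (6.41%) were called, 16 hypomethylated and 4 hypermethylated in decitabine treated animals. Of all 934227 CpG sites tested, 0.705% were called, and since the genes were chosen on this contrast, nothing is read from the comparison. In Mex3a 9 CpG sites were called, in Arhgef18 4 and in Egln2 3, all with less methylation in the decitabine group, whereas the 4 called CpG sites of Hunk had more. The q-value came from a logistic model without a term for the variation between animals. With such a term (F test) 0 of the 312 CpG sites were called, with 14 at an unadjusted p under 0.05, and with limma 0 were called, with 25 at an unadjusted p under 0.05. Without C8 a single vehicle animal was left, so only sizes of differences are given here. The median difference of the called CpG sites was then -41.6 points in Mex3a and -36.2 points in Egln2, against -41.5 and -44.1 points with C8. In Arhgef18 it was -11.0 against -30.3 points, and in Hunk 12.7 against 33.7 points. At the call limit, the CpG site just inside was position 3451962 of Arhgef18 with a difference of -26.3 points, and the CpG site just outside was position 27165540 of Egln2 with -24.7 points.

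**Figure D1:**
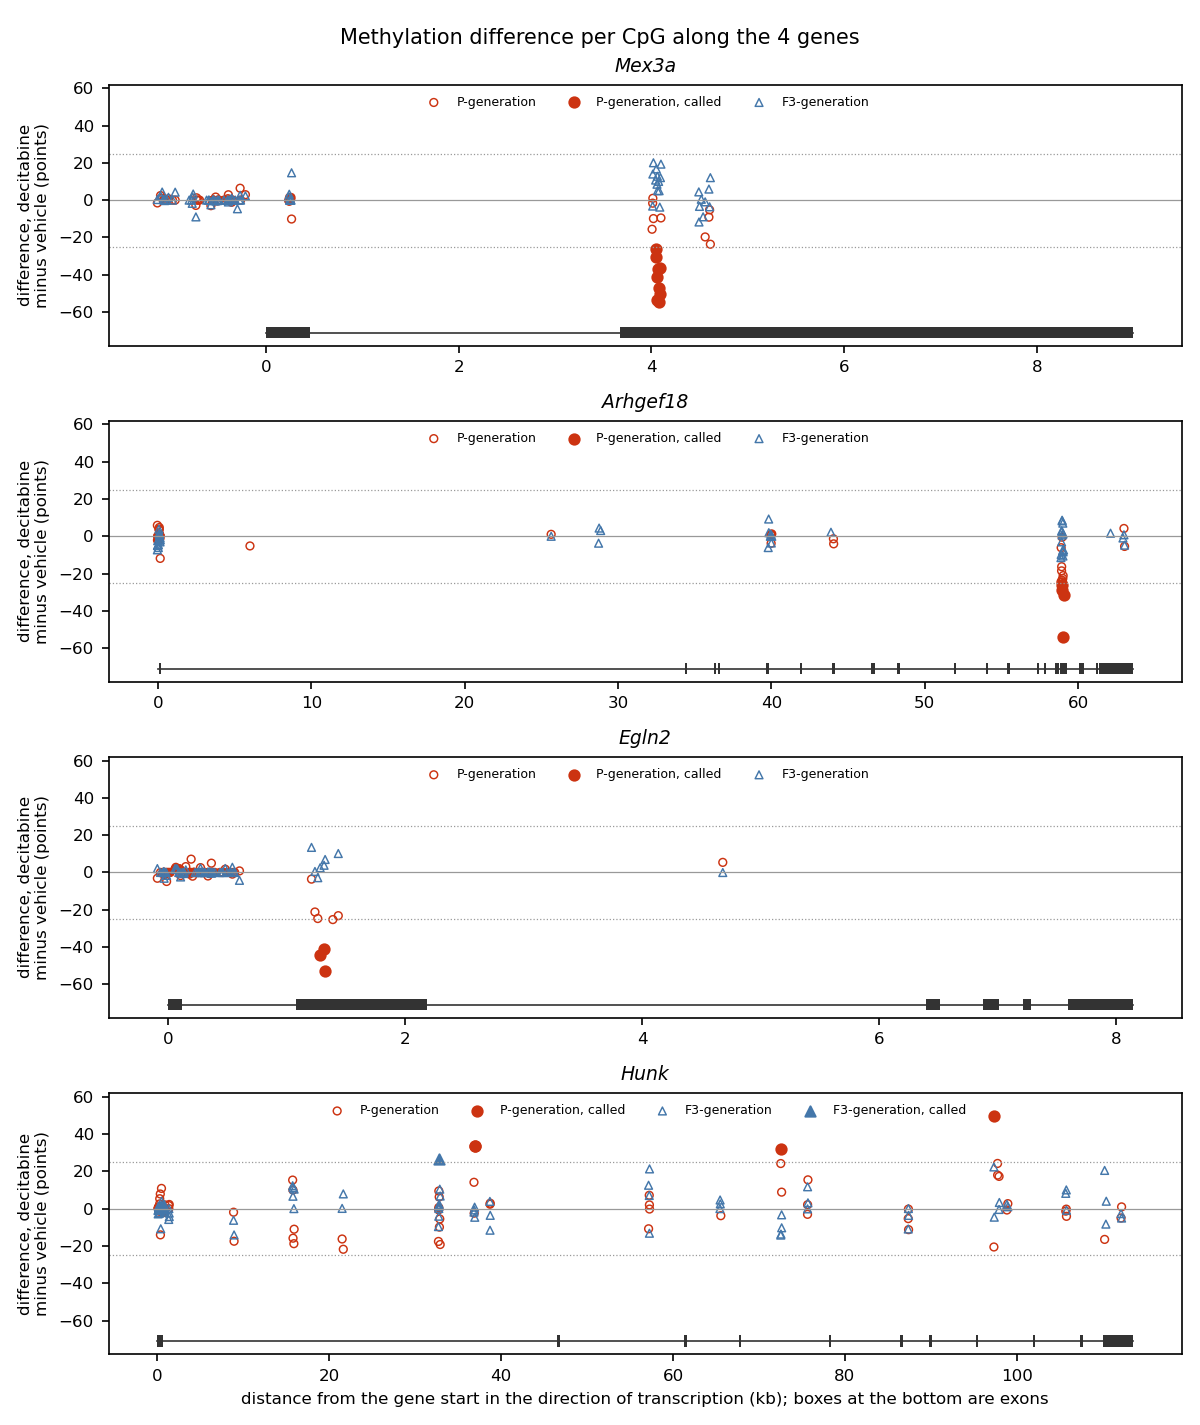
Difference in methylation (decitabine minus vehicle, pooled reads, in percentage points) of each CpG site against its distance from the gene start in kb, for the P-generation (circles) and the F3-generation (triangles), with called CpG sites filled, exons as boxes and dotted lines at 25 points. Called CpG sites of Mex3a, Arhgef18 and Egln2 sit in 1 exon each (9, 4 and 3), those of Hunk in 3 introns, and the only filled triangle is in Hunk.

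The starts of all 4 genes were almost free of methylation in every animal. Within 1000 bp of the start, the mean level per animal was between 0.63% and 1.63% over 34 CpG sites of Mex3a, between 1.35% and 4.43% over 17 of Arhgef18, between 0.56% and 1.55% over 54 of Egln2 and between 0.63% and 1.21% over 74 of Hunk. No CpG site upstream of or in exon 1 of any of the 4 genes was called in either generation.

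In Mex3a, a compact block of CpG sites in the second exon was hypomethylated in the decitabine animals of the P-generation. The leading CpG site, defined as the largest difference where every P-generation animal had 20 reads or more and the groups did not overlap, was at position 88536475 on chromosome 3, in codon 286 of 520. C8 had a level of 84.8% and C14 of 62.9%. The decitabine animals D10, D11 and D13 had 22.6%, 14.7% and 16.7%. That the groups did not overlap was required by the choice of this CpG site. The pooled difference was -54.4 points, or -45.0 points without C8. The 95% Wilson interval of C14 ran from 53.3% to 71.5%, and that of D10, the highest decitabine animal, from 15.5% to 31.6%. Both strands were read here, with 558 plus-strand and 504 minus-strand reads over the 10 animals. The strands differed in D10, with 9.26% (plus) and 37.5% (minus), and in D13, with 2.94% and 26%, whereas D11 had 13.8% and 15.7%. A strand difference was not limited to treated animals. Of the untreated F3 animals, F3D7 had 54.55% and 81.25%, whereas F3C9 had 41.07% and 42.86%.

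The difference in Mex3a extended over 9 neighbouring CpG sites from position 88536439 to 88536489, a run of 52 bp that covered 0.473% of the gene and its upstream region. All 9 were called, with differences from -54.4 to -26.4 points, and in 8 of them the groups did not overlap. The share of all CpG sites where the groups did not overlap was not counted, so nothing is read from such counts here or below. Over the 9 CpG sites, the median level was 70.0% in C8 and 60% in C14, against 25.9% in D10, 14.7% in D11 and 16.7% in D13. Without C8, all 9 kept a difference of at least 25 points, their median moved from -41.5 to -41.6 points, and the run kept its ends. The run ended 23 bp before its first CpG site, at position 88536416 with -9.90 points. On the other side it ended 5 bp after its last, at position 88536494 with -9.56 points. The vehicle animals had only 17.0% to 19.6% at these positions, which limits the size of any decrease there. At position 88536494 the decitabine animals (16.3%, 5.36% and 5.97%) were still below both vehicle animals. At position 88536416 they had 1.92%, 11.1% and 20.7%. The run nearly filled an MspI fragment of 57 bp that held 10 CpG sites. Further along exon 2, the differences at positions 88536953 and 88537007 were -19.7 and -23.6 points and were not called. Between positions 88536494 and 88536953 no CpG site was tested in the P-generation. The same held for intron 1 and for the gene beyond position 88537007, so these parts show neither presence nor absence of a difference. Over the 18 CpG sites tested in exon 2 the median difference was -25 points, against 0 points over the 37 upstream and 0.71 points over the 9 in exon 1. Without C8 the median of exon 2 was -26.1 points. The microRNA gene Mir1905, on the opposite strand within this exon, ended 57 bp before the run and held 0 tested CpG sites.

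In the F3-generation, the same Mex3a block was methylated to an intermediate level in both lineages. At the leading CpG site the levels were 41.9% in F3C9 and 69.8% in F3C30, and 64.7% in F3D1, 67.7% in F3D7 and 47.7% in F3D31. The lineages overlapped, and the pooled difference was 5.04 points (logistic model, q = 0.678). D10 at 22.6% thus had descendants at 64.7% and 47.7%, and D11 at 14.7% a descendant at 67.7%. Over the 9 CpG sites the F3 differences lay between -3.76 and 16.7 points, and 8 of 9 were opposite in sign to those of the P-generation. F3C9 was the lowest animal of its generation here, with a median of 41.9% over the run against 51.8% to 68.8% in the other 4, while its ancestor C8 had the highest median of the P-generation. The largest F3 difference of the gene was 20 points at position 88536416 (logistic model, q = 0.0464). Position 88536494, named after its values were seen, had 6.78% in F3C9 and 10.8% in F3C30 against 26.9% in F3D1, 34.4% in F3D7 and 24.4% in F3D31. The lineages did not overlap there, the difference was 19.3 points (logistic model, q = 0.00674), and it remained under the limit of 25 points.

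**Figure D2:**
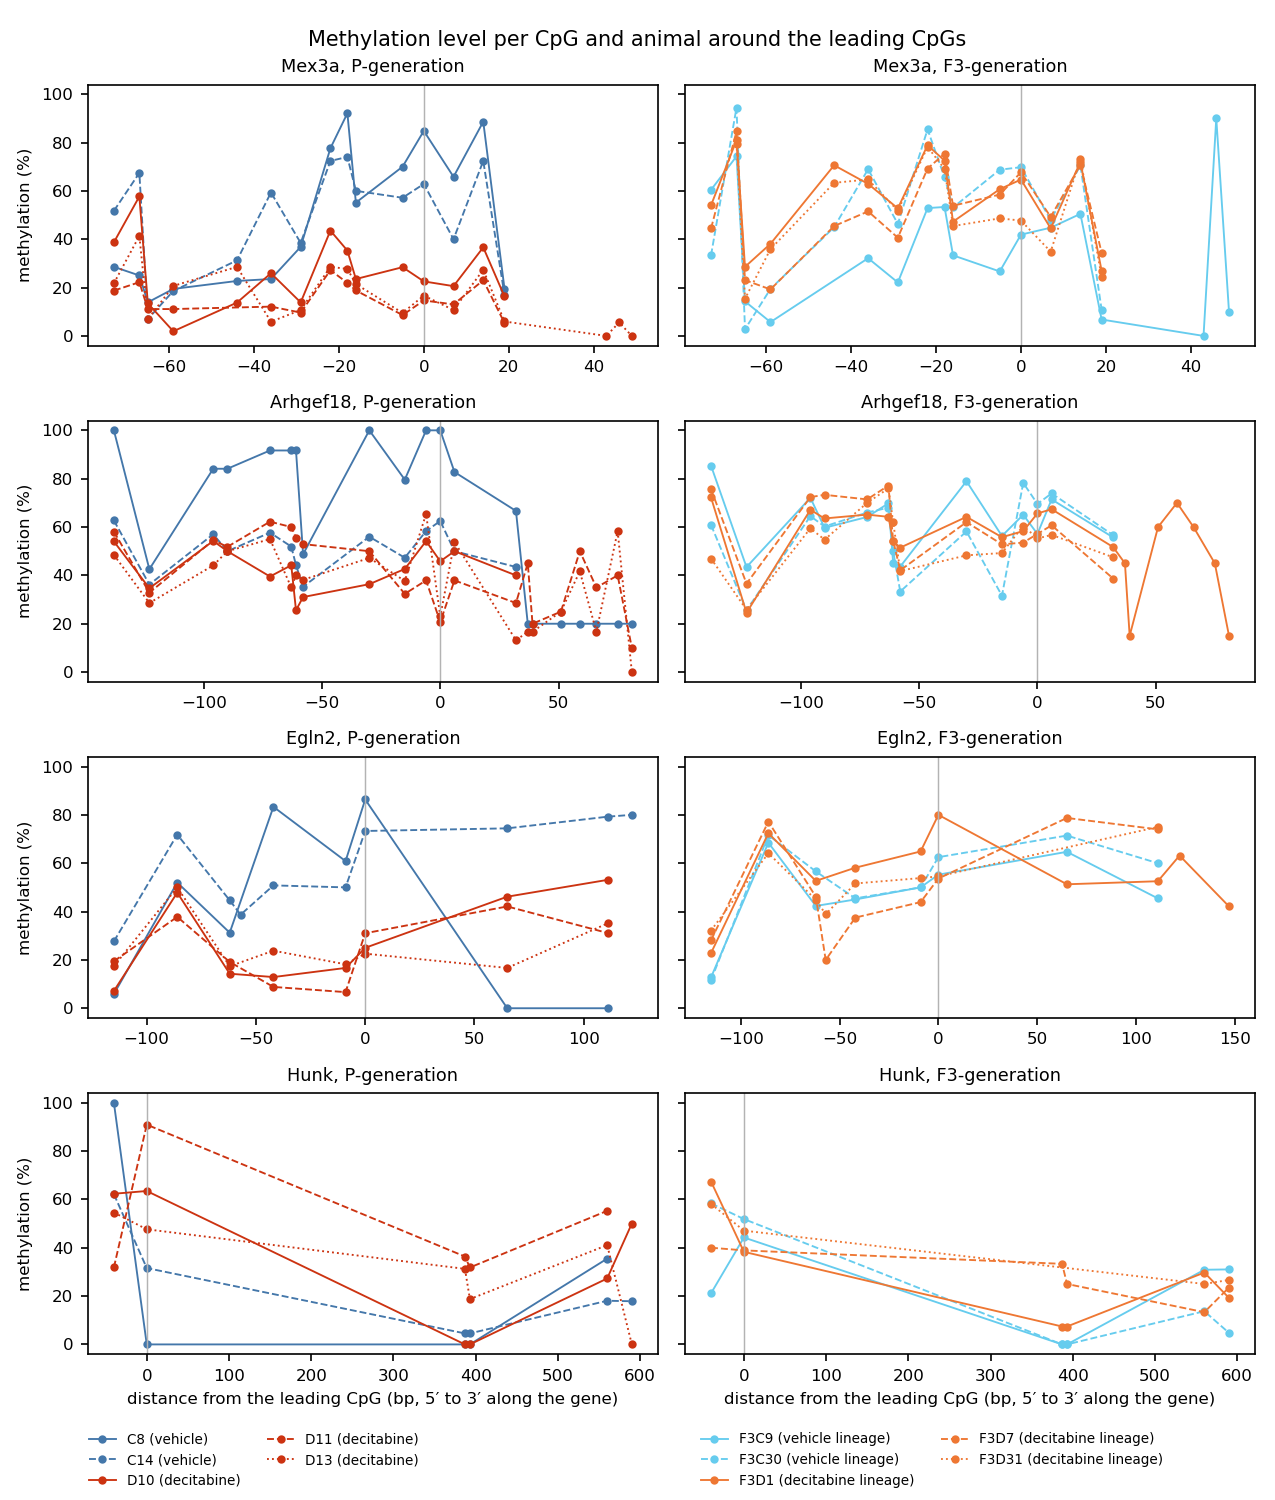
Methylation level in percent of each CpG site with at least 10 reads against its distance in bp from the leading CpG site, with 1 line per animal, P-generation on the left and F3-generation on the right. In Mex3a and Egln2 the 3 decitabine animals run below both vehicle animals at the leading CpG sites, as the choice of these sites required. In Arhgef18 C8 (100%) is above the other 4 there, and the F3 lineages overlap at all 4 leading CpG sites.

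In Arhgef18, all called CpG sites lay in exon 17, with lower methylation in the decitabine animals, and the difference was much smaller without C8. The leading CpG site was at position 3452025 on chromosome 8, in codon 728 of 1021. Its level was 100% in C8 and 62.5% in C14, against 45.8% in D10, 20.7% in D11 and 23.1% in D13. The pooled difference was -53.9 points, and without C8 it was -33.4 points. C14 and D10 each rested on 24 reads, and their Wilson intervals, 42.7% to 78.8% and 27.9% to 64.9%, overlapped. All 380 reads of this CpG site came from the minus strand.

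With all 5 animals, from the leading CpG site of Arhgef18 differences of the same sign and of at least 10 points extended over 6 CpG sites and 64 bp, from position 3451995 to 3452057. The run ended 28 bp before its first CpG site, at position 3451967 with -0.48 points, and after its last the next tested CpG site was 3940 bp away in exon 20, with 4.19 points. Without C8 the extent fell to the leading CpG site alone, since its neighbours at positions 3452019 and 3452031 had -6.43 and -3.16 points. With 2 further called CpG sites before that gap, at positions 3451962 and 3451964, the called CpG sites spanned 97 bp. Over the 6 CpG sites of the run, the median was 91.4% in C8, 53.0% in C14, 44.2% in D10, 35.1% in D11 and 42.5% in D13, so that C14 was nearer to the decitabine animals than to C8. Without C8, the median difference of the 4 called CpG sites moved from -30.3 to -11.0 points, and of the 4 only the leading CpG site remained over 25 points. Over all 14 CpG sites tested in exon 17 the median moved from -24.0 to -5.20 points. In 2 of the 4, positions 3451962 and 3451964, the groups overlapped. Elsewhere in Arhgef18, 27 CpG sites tested in the P-generation lay outside exon 17 and none was called. Introns 1 and 5 had median differences of 0.35 and 0.86 points, or -0.82 and 1.32 points without C8, and the mean over the 4 CpG sites of intron 5 was 97.1% to 99.6% in each of the 10 animals.

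The F3-generation showed little difference in exon 17 of Arhgef18. At the leading CpG site the levels were 57.1% in F3C9 and 69.6% in F3C30, and 65.6% in F3D1, 57.1% in F3D7 and 55.3% in F3D31. The lineages overlapped, with a pooled difference of 1.26 points (logistic model, q = 1). Over the 14 CpG sites of exon 17 the F3 differences lay between -11.4 and 8.61 points with a median of -1.16 points, and the largest was at position 3451887 (q = 0.212). The mean over these CpG sites was 53.9% to 62% in the 5 F3 animals, which is above C14 and all decitabine animals of the P-generation (41.4% to 50.9%) and below C8 (83.1%).

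In Egln2, the second exon was hypomethylated in the decitabine animals around the start codon. The leading CpG site, position 27165478 on chromosome 7 in codon 7 of 419, had a level of 86.4% in C8 and 73.3% in C14, against 25% in D10, 31% in D11 and 22.6% in D13. The groups did not overlap, as the choice of the CpG site required, and the pooled difference was -52.7 points, or -47.1 points without C8. Coverage was thin, with 22 to 31 reads in the P-generation and all 277 reads of the 10 animals on the minus strand. The Wilson interval of C14, 55.6% to 85.8%, did not reach that of D11, 17.3% to 49.2%.

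The 2 other called CpG sites of Egln2 were position 27165487, in codon 4 (-40.9 points), and position 27165520, in the 5′ untranslated part of exon 2 (-44.1 points), and groups did not overlap at either. Without C8 these differences were -36.2 and -34.9 points. Differences of at least 10 points in the same direction covered 7 CpG sites and 199 bp, from position 27165367 to 27165564, or 1.96% of the gene and its upstream region. In the 5′ direction of the gene the run ended at position 27165593 with -3.58 points, 29 bp beyond. Without C8 that CpG site had -12.7 points, so that the run took it in, covered 8 CpG sites and 228 bp, and ended at position 27166201 in intron 1 with 1.84 points. In the other direction the next tested CpG site was 3245 bp away in intron 2, with 5.41 points (-0.67 points without C8), the only CpG site tested beyond exon 2. At the 3′ end of the run, positions 27165367 and 27165413, the vehicle animals differed strongly from each other. C8 had 0 methylated reads of 15 and of 10, which allows levels of up to 20% and 30%, whereas C14 had 79.2% and 74.4%. Without C8, the differences at these positions were -40.6 and -39.3 points, and with it -23.2 and -25.3 points. The 44 CpG sites of intron 1 and the 13 of exon 1, which lie between this run and the gene start, had median differences of 0 and 1.83 points, with and without C8.

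In the F3-generation, the levels at the leading CpG site of Egln2 were intermediate in all animals. The leading CpG site had 55.3% in F3C9, 62.5% in F3C30, 80% in F3D1, 53.7% in F3D7 and 54.5% in F3D31, with a pooled difference of 6.96 points (logistic model, q = 0.853). The lineages overlapped, and F3D31 and F3C30 rested on 11 and 16 reads. Among the 3 CpG sites called in the P-generation, the F3 differences were between 2.53 and 6.96 points, all opposite in sign to the P-generation. The largest F3 difference of the gene, 13.4 points, was at position 27165593 (logistic model, q = 0.13), at the edge of the run.

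In Hunk, the 4 called CpG sites had higher methylation in the decitabine animals and lay in introns, whereas other CpG sites of the gene had differences down to -21.8 points. The leading CpG site was at position 90483385 on chromosome 16, in intron 8, 97372 bp from the gene start. Its level was 0% in C8, with 0 of 25 reads methylated, which allows a level of up to 12.0%, and 31.6% in C14. D10, D11 and D13 had 63.5%, 90.9% and 47.6%. The groups did not overlap, as the choice of the CpG site required, with the decitabine animals higher. The pooled difference was 49.8 points, or 37.3 points without C8. The Wilson intervals of C14, 19.1% to 47.5%, and D13, 28.3% to 67.6%, overlapped. The CpG site is part of an MspI site, and 363 of its 364 reads came from the minus strand, from a fragment of 42 bp that held 2 CpG sites.

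The other CpG site of that Hunk fragment, position 90483345, 40 bp away, had a difference of the opposite sign that was not called. It had 100% in C8 and 62.2% in C14, against 62.3% in D10, 31.8% in D11 and 54.5% in D13, a difference of -20.6 points, or -7.29 points without C8, and the groups overlapped. On the other side, differences of the same sign continued over 4 CpG sites to position 90483945, 562 bp in all, with a smallest value of 17.3 points. They ended at position 90484860 with -0.74 points. Beyond the leading CpG site none of this run was called, and the groups overlapped at each. D10 had 0% on 10 reads at positions 90483772 and 90483778, as low as C8. At position 90483945 D10 had 27.3%, below C8 with 35.5%. The other called CpG sites of Hunk were far from this region. Positions 90422927 and 90422942 in intron 1 had differences of 33.6 and 33.8 points, and both came from C8, which had 30.8% at each, whereas the other 4 animals had 80% to 100%. Without C8 the differences were 1.45 and -2.90 points. Position 90458567 in intron 4 had 3.70% in C8 and 22.2% in C14, against 43.3% in D10, 55.2% in D11 and 40.6% in D13. Its groups did not overlap, and the difference was 31.9 points, or 23.9 points without C8. The 66 CpG sites tested in exon 1 had median differences of 0 points, as did the 36 of intron 1, which had -1.03 points without C8. Introns 2, 3, 6 and 9 had median differences between -5.36 and 0.88 points, or between -8.93 and -1.12 points without C8. In introns 4 and 8, with 6 and 7 CpG sites, the medians were 12.1 and 17.3 points, or 9.80 and 16.3 points without C8. In exon 11, 1 coding CpG site had -16.5 points and 2 untranslated ones a median of -2.05 points, or -15.4 and 0 points without C8.

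In the F3-generation, the leading CpG site of Hunk had 44.2% in F3C9, 51.9% in F3C30, 38.3% in F3D1, 38.9% in F3D7 and 47.1% in F3D31. The lineages overlapped, and the pooled difference was -4.59 points (logistic model, q = 1). The range was 38.3% to 51.9% over the 5 F3 animals and 0% to 90.9% in the P-generation. A wide range in the P-generation follows in part from the choice of this CpG site, and its 0% was C8. Nothing is therefore read from the narrower range in the F3-generation. At position 90483345 of the same fragment, named after its values were seen, the F3 difference was 22.3 points (logistic model, q = 0.0464), with 21.2% in F3C9 as the lowest level and overlapping lineages. In the F3 lineages, the CpG sites of intron 1 called in the P-generation had differences of 0.78 and -4.64 points, and position 90458567 had -13.7 points with 70.6% in F3C9 as the highest level.

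The only CpG site of the 4 genes called in the F3-generation was position 90418830 in intron 1 of Hunk. This was 1 of 328 CpG sites tested in the 4 genes, or 0.305%, against 0.237% of all 1054272 CpG sites tested in that generation. Its level was 48.0% in F3C9 and 80% in F3C30, and 93.6% in F3D1, 94.6% in F3D7 and 90% in F3D31. Both vehicle-lineage animals were below all decitabine-lineage animals, with a pooled difference of 26.6 points (logistic model, q = 0.00236). The call was lost without F3C9, without F3D1 and without F3D7, and 0 CpG sites of the 4 genes were called with the F test for overdispersion or with limma, which had 2 and 13 of 328 at an unadjusted p under 0.05. In the P-generation, the same CpG site had 57.8% in C8 and 76.7% in C14, against 63.0% in D10, 40.0% in D11 and 61.3% in D13, a difference of -9.91 points that was not called. The nearest tested neighbours on either side, named after their values were seen, (positions 90418805 and 90418873) had F3 differences of 2.30 and 10.4 points.

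Whatever the size of the difference, 7 of the 328 CpG sites (2.13%) had a q-value under 0.01 in the F3-generation, against 1.31% of all CpG sites tested. Of the 7, 2 had the sign of the P-generation and 5 the opposite sign. The smallest q-value was at position 90394938 in intron 1 of Hunk, named after its values were seen. Its level was 100% in F3C9 and 98.5% in F3C30, against 88.8% in F3D1, 75% in F3D7 and 84.6% in F3D31, a difference of -14.1 points (logistic model, q = 0.000286) that stayed under the limit of 25 points. In the P-generation C8 had 100% and C14 91.5%, whereas D10 had 81%, D11 68.4% and D13 83.3%, a difference of -17.5 points, or -14.2 points without C8. At this CpG site, picked for its F3 q-value, the decitabine groups were lower in both generations, and the groups did not overlap in either. D13 had 18 reads here. How many CpG sites have this pattern was not counted, and a link between the generations was not tested.

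To compare the lineages with 1 value per animal, the methylation of all CpG sites within 500 bp of the leading CpG site that were covered in all 10 animals was averaged. In Mex3a (14 CpG sites), the mean ± SD was 52.3% ± 1.38 in vehicle-control (n = 2) and 22.1% ± 5.88 in decitabine treated animals (n = 3) of the P-generation. In the F3-generation it was 47.0% ± 13.2 and 55.4% ± 2.10, a difference of 8.36 points (exact permutation test, two-sided, p = 0.3). In Egln2 (7 CpG sites), it was 51.2% ± 7.86 and 24.5% ± 2.27 in the P-generation. In the F3-generation, it was 48.4% ± 3.89 and 54.3% ± 3.10, a difference of 5.93 points (exact permutation test, p = 0.2). In Arhgef18 (14 CpG sites), it was 67.0% ± 22.8 and 43.3% ± 2 in the P-generation, where the difference of -23.7 points became -7.63 points without C8. In the F3-generation it was 59.5% ± 3.61 and 57.3% ± 2.98, a difference of -2.13 points (exact permutation test, p = 0.6). In Hunk (2 CpG sites of opposite difference), it was 48.4% ± 2.21 and 58.5% ± 6.42 in the P-generation and 43.9% ± 15.8 and 48.3% ± 7.67 in the F3-generation, a difference of 4.40 points (exact permutation test, p = 0.7). Adjusted over these 4 tests, the p-values of the exact permutation test were 0.6 for Mex3a and Egln2 and 0.7 for Arhgef18 and Hunk. With 2 against 3 animals, this test cannot give a p below 0.1, and it treats F3D1 and F3D31, both descendants of D10, as independent.

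**Figure D3:**
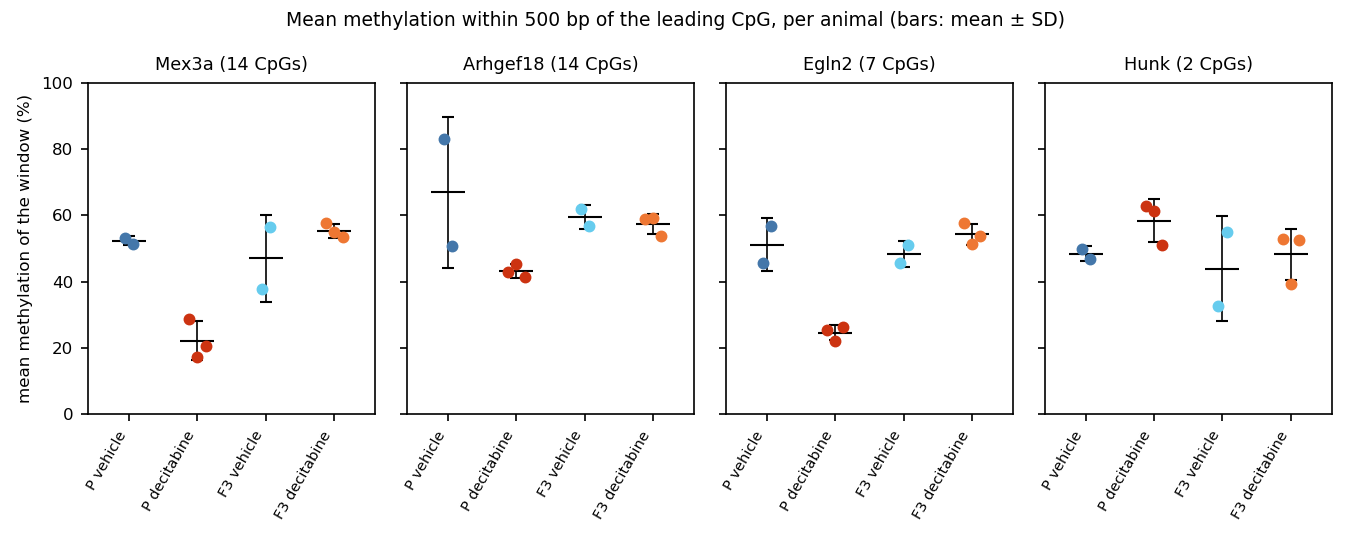
Mean methylation in percent of the CpG sites within 500 bp of the leading CpG site, with 1 point per animal and bars for the mean ± SD of each group. In Mex3a and Egln2 the 3 decitabine animals of the P-generation (17.2% to 28.6% and 22% to 26.4%) sit below all other 7 animals, in Arhgef18 C8 sits at 83.1%, and the F3 groups lie between 32.7% and 62%.

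**Figure D4:**
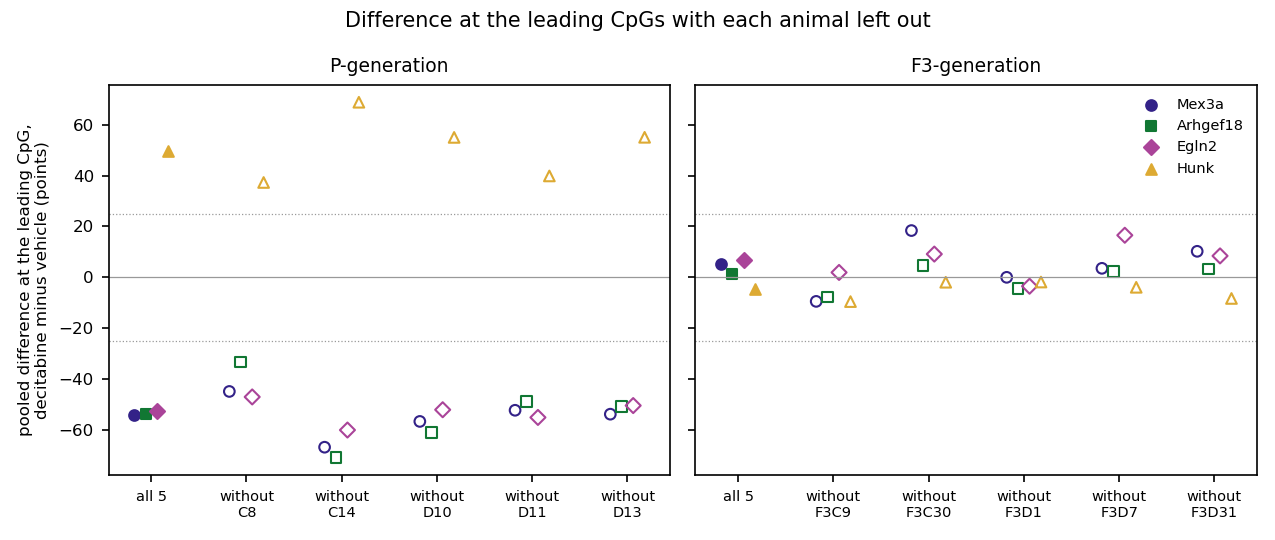
Pooled difference at the leading CpG site (decitabine minus vehicle, in percentage points) with all 5 animals of a generation (filled) and with each animal left out (open), with dotted lines at 25 points. In the P-generation all values stay beyond 25 points, and those without C8 (-45.0 in Mex3a, -33.4 in Arhgef18, -47.1 in Egln2 and 37.3 in Hunk) are the smallest, whereas in the F3-generation they lie between -9.61 and 18.4 points. The CpG sites were chosen for a large P-generation difference without overlap of the groups.

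Of the 20 CpG sites called in the P-generation, all were tested in the F3-generation, none was called, 17 had a difference of the opposite sign and 14 a difference under 10 points. CpG sites of 1 fragment share reads and animals and are not independent. Among all 6056 CpG sites called in the P-generation and tested in the F3-generation, 46.9% had the same sign and 69.5% a difference under 10 points. Of the 20 CpG sites, 17 were between 20% and 80% in all 5 F3 animals. This held for 26.3% of all CpG sites called in the P-generation and for 3.95% of all CpG sites tested in the F3-generation. The sequence around the leading CpG sites was varied. Within 250 bp to either side of them, Mex3a held 44 CpG sites (ratio of observed to expected CpG 0.87), Arhgef18 38 (0.73), Egln2 16 (0.29) and Hunk 7 (0.23). Around the gene starts the same ratio was 0.49 in Mex3a, 0.69 in Arhgef18, 1.04 in Egln2 and 0.94 in Hunk. Of the 20 called CpG sites, 1 lay in sequence that the reference marks as repetitive, against 8.27% of all CpG sites tested in the P-generation, and the 4 leading CpG sites did not.

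Related genes were counted in the same way. In the P-generation, where 0.705% of all CpG sites were called, 0 of 440 were called in Mex3b, Mex3c and Mex3d, which encode the other RNA-binding proteins of the Mex3 family. Also 0 of 640 were called in 8 genes of oxygen sensing (Egln1, Egln3, P4htm, Vhl, Hif1an, Hif1a, Epas1 and Hif3a). In 16 genes of AMP-activated and related kinases, 10 of 1493 CpG sites were called, or 0.67%. Of these, 3 hypomethylated CpG sites were in Mark4, 3 hypermethylated ones in Nuak1, and 1 hypermethylated one each in Snrk, Nim1k, Melk and Sik1, the largest difference being 52.2 points in Nuak1. In the F3-generation, where 0.237% of all CpG sites were called, 1 of 459 was called in the Mex3 family (0.218%; Mex3d, higher), 0 of 702 in oxygen sensing and 1 of 1634 in the kinases (0.0612%; Nuak1, lower). The median difference was 0 points over all CpG sites tested in either generation.

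Finally, the genes with the most similar pattern over the 10 animals were sought among 19604 tiles of 500 bp with at least 3 CpG sites and a range of at least 20 points. For the Mex3a window these were Prdm16 (Pearson's r = 0.968), Mast3 (0.959) and Fgfrl1 (0.955). For Arhgef18 they were Ring1 (0.979), Map3k1 (0.970) and Cgn (0.957), for Egln2 Runx3 (0.963), Gm20388 (0.962) and Nphp4 (0.957), and for Hunk Dyrk2 (0.844), Cwc27 (0.841) and Agbl4 (0.840). The values are the highest of all tiles and share the libraries, and so describe likeness in these 10 animals alone.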

How the data were processed

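RRBS of spermatozoal DNA from 10 mice was used. Per the labels, the authors processed reads with CASAVA 1.8.2, Trim Galore 0.3.3, cutadapt 1.1 and Bismark 0.10.1 against mm10, and deposited methylated and unmethylated read counts of each CpG cytosine, strands apart, unfiltered and not normalized. In RRBS, amplified copies of a molecule cannot be told apart, and bases filled in at MspI ends are not genomic where trimming misses them, which bears on CpG sites within MspI sites.

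Strands were summed. Where all 5 animals of a generation had at least 10 reads, methylated against unmethylated counts entered a logistic model with treatment as its term (likelihood ratio, Benjamini-Hochberg over all CpG sites). A call needed q under 0.01 and a pooled difference of at least 25 points. This test was checked on simulated data, where 197 (P-generation) and 195 (F3-generation) of 200 CpG sites changed by 50 points among 50000 were recovered. All animals of a group were drawn from a shared level there, so the simulation held no variation between animals. It therefore cannot show how the test behaves where animals of a group differ. Window means, averaged within 500 bp of the leading CpG site, were compared by exact permutation.

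The 4 genes, the lists of related genes and the tests were chosen with earlier results of these data known. Named were the leading CpG site per gene, the CpG sites next to the call limit, each covered gene part, every CpG site called in the F3-generation, the largest F3 difference per gene, related genes (1 further list is not reported here), and the 3 protein-coding genes most alike. Runs extended from the leading CpG site to the first tested CpG site under 10 points or of opposite sign. Annotation was GENCODE on GRCm38, the sequence of mm10, with transcripts Mex3a-201, Arhgef18-201, Egln2-201 and Hunk-201. Alternatives were a minimum of 20 reads, a minimum of 10 reads per strand, windows of 250 and 1000 bp, pooled reads, group means, an overdispersion F test, limma 3.58.1 (R 4.3.3) on log2 ratios, and leaving out each animal. Python 3.11.15, numpy 2.4.6, scipy 1.17.1 and pandas 2.3.3 were used. Ancestry was taken from the study's text.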

Additional observations from a re-analysis of the deposited data

Results flagged for a closer look

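The window of Egln2 was flagged because both generations had groups that did not overlap, in opposite directions. For the P-generation this follows in part from the choice of the gene and of its leading CpG site. How many windows in all have such a pattern was not counted. In the P-generation, the decitabine animals (25.3%, 22% and 26.4% in D10, D11 and D13) were below both vehicle animals (45.7% and 56.8% in C8 and C14), a difference of -26.69 points. In the F3-generation, F3D1, F3D7 and F3D31 (57.6%, 51.5% and 53.7%) were above F3C9 and F3C30 (45.6% and 51.1%), a difference of 5.93 points. The gap between F3C30 and F3D7 was smaller than the SD of either lineage (3.89 and 3.10). The difference between the generations was not tested, since the gene was chosen on the P-generation, and the F3 difference itself had p = 0.2 in the exact permutation test.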

How the results depend on the processing

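No paired analysis was possible because the groups compared share no replicate numbers. With the overdispersion F test and with limma, 0 CpG sites were called over all tested and 0 in the 4 genes, in either generation, with 10494 and 52217 (P-generation) and 12765 and 53709 (F3-generation) of all CpG sites at an unadjusted p under 0.05. With a minimum of 20 reads, the P-generation had 3490 calls and the F3-generation 1432 over all CpG sites, against 6584 and 2494, while 18 and 1 were called in the 4 genes. With group means in place of pooled reads, 2 CpG sites of the 4 genes were called in the F3-generation. Leaving out each animal gave 2770 to 41596 calls over all CpG sites in the P-generation and 730 to 14088 in the F3-generation, and 15 to 36 and 0 to 8 in the 4 genes. The extremes were the fits without C8 (2770 and 15), without C14 (41596 and 36), without F3C9 (730 and 0) and without F3C30 (14088 and 8), and 0 were also called in the 4 genes without F3D1 and without F3D7.

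For the windows of the P-generation, a minimum of 20 reads and pooled reads moved Mex3a from -30.2 to -37.2 and -36.0 points. Windows reaching 1000 bp moved Egln2 from -26.7 to -6.47 points, since they took in unmethylated CpG sites of intron 1 (28 CpG sites in all). The minimum of 20 reads turned Hunk from 10.0 to -31.5 points, because it dropped the leading CpG site (18 reads in F3D7) and kept 1 CpG site. Leaving out each animal gave -33.4 to -27.7 points in Mex3a, -39.8 to -7.63 points in Arhgef18 (without C14 and without C8), -32.2 to -21.1 points in Egln2 and 7.79 to 13.7 points in Hunk. In the F3-generation, it gave -1.0 to 17.7, -4.68 to 0.42, 3.18 to 8.68 and -6.80 to 15.6 points. The sign turned without F3C9 in Mex3a (-1.0), Arhgef18 (0.42) and Hunk (-6.80), and the cause was not tested. With all 5 animals, the p of the exact permutation test was 0.1 to 0.9 over the alternatives. At the leading CpG sites of Arhgef18, Egln2 and Hunk, 11 to 96 reads per animal limited the precision.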
